A study of Mus musculus with 2 samples.

Results

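Krt7, Krt8, Krt18 and Krt19 are the keratin genes of simple (single-layered) epithelia. They were taken by gene name from the array annotation, all probes included, which gave 5 probes for 4 genes among 39429 probes and 31896 gene names. Krt8 had 2 probes and the other genes 1 each. Levels were read in 3 clones of the mouse embryonic stem (ES) cell line ZHBTc4 on 2 two-colour arrays.

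Keratins are intermediate filament proteins that assemble only as pairs of a type II (basic) and a type I (acidic) chain. Krt7 and Krt8 encode type II chains, and Krt18 and Krt19 encode type I chains. The Krt8 and Krt18 products form the first keratin filaments of the mouse embryo, in the trophectoderm of the blastocyst, and Krt7 and Krt19 are also expressed in trophoblast. In ES cells, loss of the transcription factor Oct4 leads to trophoblast-like differentiation, which is why these genes are commonly read as markers of that state.

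ZHBTc4 cells lack functional endogenous Oct4 alleles and carry an Oct4 transgene that doxycycline shuts down. All 3 clones were cultured feeder-free (15% serum, LIF at 1000 IU/ml) and were given doxycycline ahead of RNA extraction. The clones were stably transfected with pCAG-IP plasmids that carry EGFP, Oct4-EGFP or Nr5a2-EGFP. Nr5a2 is a nuclear receptor. By its label, the EGFP clone is without added Oct4, the Oct4-EGFP clone has Oct4 added back, and the Nr5a2-EGFP clone has the nuclear receptor in its place. RNA of the Nr5a2-EGFP clone was labelled with Cy5 (red) for both arrays. The Cy3 (green) partner was the EGFP clone on one, called the EGFP array here, while the other, called the Oct4 array, carried Oct4-EGFP.

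The array values of the transgenes' own genes did not follow these labels. Pou5f1, which encodes Oct4, had 1 dim probe, at a log2 level of 7.61 in the clone labelled EGFP and 7.59 in the one labelled Oct4-EGFP. In the clone labelled Nr5a2-EGFP it was at 7.49 on the EGFP array and not well above background on the other. Nr5a2 was lower, not higher, in the clone that carries its name, with log2 ratios at its brighter probe of -0.92 on the EGFP array and -1.14 on the Oct4 array, and of -0.39 and -0.63 at the dimmer one. Whether these probes lie in the part of the gene that the plasmids carry was not tested. Clone names below are those of the labels, and every direction rests on them.

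Each transgene is represented by 1 monoclonal clone and each direct comparison by 1 array, with no replicate and no dye swap. Clone and transgene thus cannot be told apart, and no test between clones was possible. A gene is called higher or lower where its log2 ratio reached 1 in size, that is 2-fold. The Nr5a2-EGFP clone was read on both arrays, and the difference between its readings had an SD of 0.27 (log2) over 24617 genes, with 1.3% of genes at least 2-fold apart. This SD serves below as the technical spread. It may hold no variation between cultures, since the labels do not say whether both readings came from the same RNA extract. As both readings are Cy5, it holds no difference between dyes. In RNA from a bulk culture, more keratin-expressing cells and more keratin RNA per cell cannot be told apart.

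The probes are 60 bases long and are printed here because each keratin value rests on 1 or 2 of them, and keratin genes are similar in sequence. Of the second Krt8 probe, only a 30-base stretch is shown, with the polyadenylation signal AATAAA in capitals, which places it at the 3′ end of the transcript.
Krt7: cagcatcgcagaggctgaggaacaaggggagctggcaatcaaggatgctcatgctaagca
Krt8 probe 1: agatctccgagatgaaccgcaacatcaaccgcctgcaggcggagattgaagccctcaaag
Krt8 probe 2, stretch: tgtattttctaaAATAAAgcctcagctggc
Krt18: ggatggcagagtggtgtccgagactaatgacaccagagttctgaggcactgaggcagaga
Krt19: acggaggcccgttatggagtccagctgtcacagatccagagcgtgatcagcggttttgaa

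On mm9, the build of the files, the Krt7 probe (NM_033073) lies at chr15:101253718-101253777 on the plus strand and the Krt18 probe (NM_010664) at chr15:101862341-101862400, also on the plus strand. Krt8 probe 1 (NM_031170) lies at chr15:101828827-101828886 and probe 2 (AK166854) at chr15:101827138-101827197, both on the minus strand. The Krt19 probe (NM_008471) lies at chr11:100002392-100002451 on the minus strand. The longest run of bases that any of the 5 probes shared with a probe of another keratin gene was 10, between Krt7 and Krt39, and the runs shared by the other 4 were 8 or 9. Shared runs with any other probe on the array reached 15 bases (Krt8 probe 2). How far such runs hybridise was not tested.

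All 5 probes were well above background and unsaturated in all 4 channels. Their mean signals were 23.1 to 646 times the local background. Levels are given below as log2 intensities after normalization, which are not on a common scale between probes. The Nr5a2-EGFP levels are all Cy5 and the others all Cy3, so for any probe a dye effect and a difference between the Nr5a2-EGFP clone and another cannot be told apart.

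Krt18 was read at 13.99 in the EGFP clone, 14.62 and 14.58 in the Nr5a2-EGFP clone (EGFP array, then Oct4 array), and 12.54 in the Oct4-EGFP clone. Its Nr5a2-EGFP readings were 0.04 apart, the closest of the 5 probes, and both lay above the other clones. Krt8 probe 1 followed the same order, with 11.68 in the EGFP clone, 12.33 and 12.19 in the Nr5a2-EGFP clone and 10.66 in the Oct4-EGFP clone. These are the partner chains of the simple epithelial filament, and at these probes both were highest in the Nr5a2-EGFP clone and lowest in the Oct4-EGFP clone.

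Krt8 probe 2 gave another order of the upper levels, 12.01 in the EGFP clone, 11.95 and 11.76 in the Nr5a2-EGFP clone and 10.13 in the Oct4-EGFP clone. At this probe the EGFP and Nr5a2-EGFP clones did not differ beyond the technical spread. The probes of Krt8 thus shared the low Oct4-EGFP reading but not the order of the other clones.

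Krt19 was read at 13.01 in the EGFP clone, 12.25 and 12.00 in the Nr5a2-EGFP clone and 10.37 in the Oct4-EGFP clone. Krt7 was read at 13.43 in the EGFP clone, 13.19 and 13.09 in the Nr5a2-EGFP clone and 12.32 in the Oct4-EGFP clone. Both were highest in the EGFP clone. For Krt7 the EGFP and Nr5a2-EGFP levels were closer than the technical spread on the shared array, and for Krt19 they were not.

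**Figure D1:**
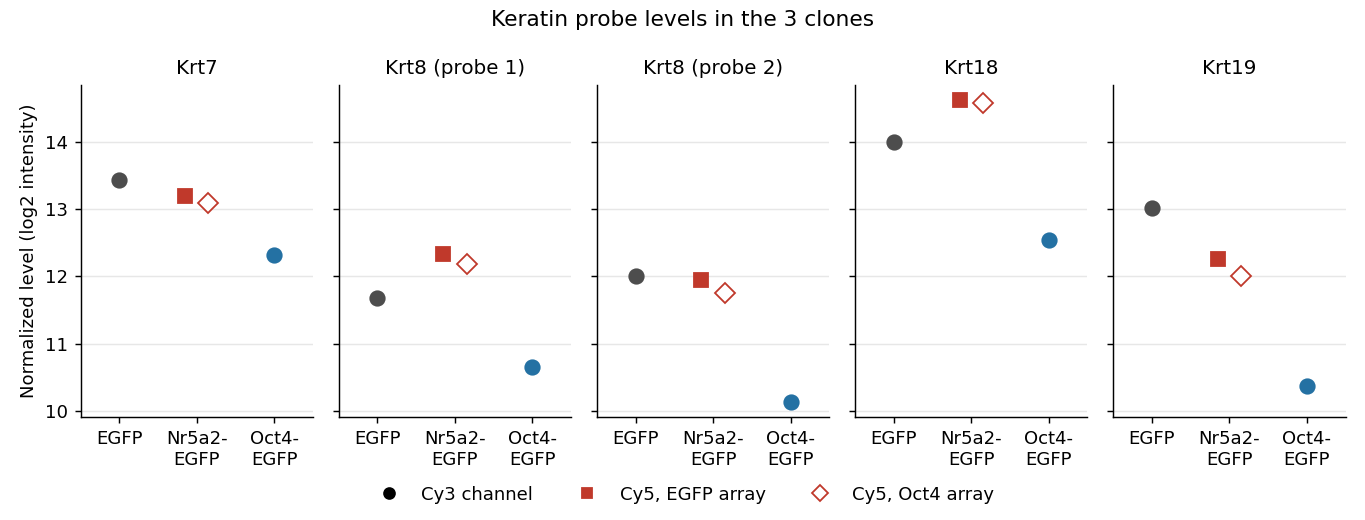
Normalized log2 intensity (vertical axis) of the 5 keratin probes in the EGFP, Nr5a2-EGFP and Oct4-EGFP clones (horizontal axis). Each point is 1 array channel, with no replicates; circles are Cy3, and for Cy5 the square is from the EGFP array and the diamond from the Oct4 array. The Oct4-EGFP clone has the lowest point in all 5 panels.

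The EGFP array asked what the nuclear receptor transgene changed in cells labelled as without added Oct4, with the EGFP clone as its control. None of the 4 keratin genes was 2-fold higher or lower, where 8.28% of 26011 genes were in one direction or the other. Krt8 probe 1 (log2 ratio 0.65, 1.57-fold) and Krt18 (0.63, 1.54-fold) were higher in the Nr5a2-EGFP clone by more than the technical spread. Krt19 was lower (-0.76, or 1.69-fold), and it reached -1.01, just past 2-fold, with the other reading of the Nr5a2-EGFP clone. Krt7 (-0.25) and Krt8 probe 2 (-0.06) lay within the technical spread, and both turned to the other side of 0 (0.02 and 0.14) under median centring without loess.

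Sizes of this order were common on the array. Ratios larger in size than those of Krt8 probe 1, Krt18 and Krt19 were found in 22.0%, 23.6% and 15.9% of genes. Median centring moved the median of all genes from 0.03 to 0.16, and the share of higher genes among the calls from 39.9% to 63.2%. The keratin ratios moved with it, to 0.85 for Krt8 probe 1, 0.85 for Krt18 and -0.53 for Krt19.

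The Oct4 array set the Nr5a2-EGFP clone against the clone labelled as having Oct4 added back. Of the 4 genes, 3 passed 2-fold on the higher side, Krt18, Krt19 and Krt8, where 4.45% of 26119 genes did so (11.3% in either direction). Krt18 had the largest difference (log2 ratio 2.04, 4.11-fold), then Krt19 (1.64, 3.11-fold) and Krt8 (1.63, 3.09-fold at probe 2, and 1.53, 2.89-fold at probe 1). Krt7 was 1.72-fold higher (0.78), beyond the technical spread but short of 2-fold. The median of the 4 genes was 1.58, and that of all genes 0.01.

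The ratios of the Krt8 probes differed by 0.71 over EGFP (probe 1 minus probe 2) and by -0.10 here. Only 1.66% of genes had a ratio larger in size than that of Krt18, and 3.50% one larger than that of Krt19, whereas 18.0% did for Krt7. With the other Nr5a2-EGFP reading, taken on the EGFP array and set against the same Oct4-EGFP channel, the ratios were 2.08 for Krt18, 1.89 for Krt19, 1.67 and 1.82 for the Krt8 probes and 0.87 for Krt7.

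The third comparison, Oct4-EGFP against EGFP, was made across arrays as the EGFP-array ratio minus the Oct4-array ratio, so that a dye effect of a probe cancels. It shares its channels with both comparisons above and adds no new measurement. All 5 probes were lower in the Oct4-EGFP clone, and 3 of 4 genes by at least 2-fold, where 6.06% of 26388 genes were (12.7% in either direction). Krt19 had -2.40 (5.27-fold lower), Krt18 -1.41 (2.66-fold) and Krt7 -1.03 (2.04-fold). Krt8 had -0.88 (1.84-fold) at probe 1 and -1.69 (3.22-fold) at probe 2.

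Taken from the Cy3 levels alone, the differences were -2.65 for Krt19, -1.45 for Krt18, -1.12 for Krt7, and -1.02 and -1.88 for the Krt8 probes. On that scale 7.58% of genes were 2-fold lower and 8.49% higher. Krt7 and Krt8 probe 1 thus sat close to the 2-fold limit, and which side they fell on depended on the scaling. With the processed signals of the scanner software, Krt8 probe 1 had -0.92 and Krt7 -1.02, and with median centring -0.77 and -0.94. Across all the keratin probes, the Oct4-EGFP clone was lowest under each of the 4 alternatives tried.

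**Figure D2:**
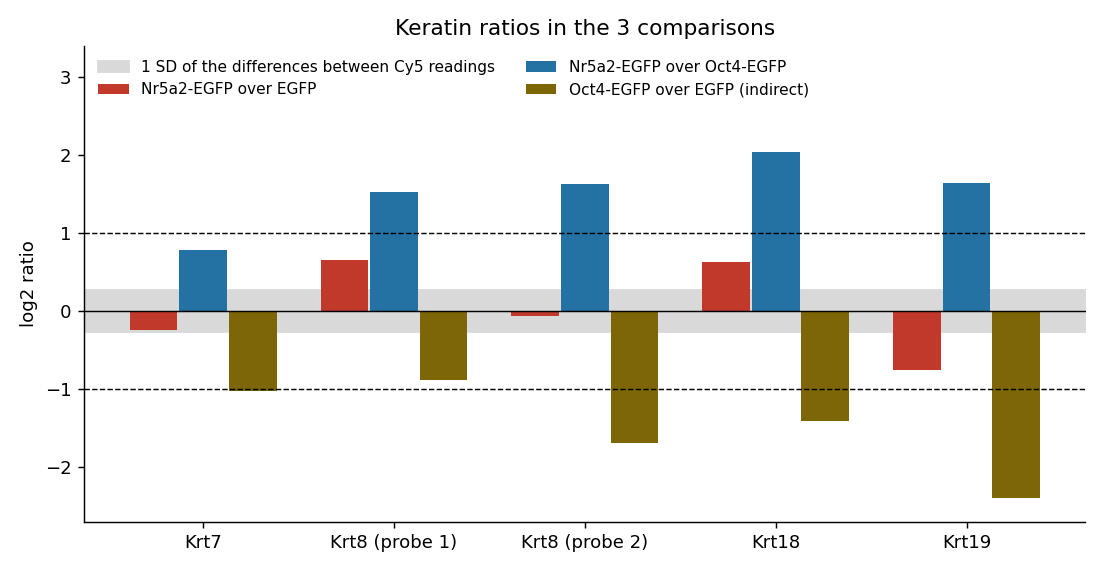
Log2 ratios (vertical axis) of the 5 keratin probes (horizontal axis) in the 3 comparisons, 1 bar per probe and comparison, with no replicates. Dashed lines mark 2-fold and the grey band the technical spread (SD 0.27); the bars over Oct4-EGFP run from 0.78 to 2.04, while those over EGFP stay within 0.76 of 0.

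The type I and type II partners were compared through their ratios, since levels of different probes are not on a common scale. Krt8 (probe 1) and Krt18 differed by 0.02 in their ratios over EGFP, and by -0.51 over Oct4-EGFP, where Krt18 had the larger ratio. With Krt8 probe 2 the differences were -0.69 and -0.41. Thus the near-equal shift of both chains over EGFP held for 1 of the Krt8 probes only, and over Oct4-EGFP the type I chain had the larger ratio at both.

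Krt7 and Krt19, whose products are often found together in simple epithelia, had ratios over EGFP that differed by 0.51 and over Oct4-EGFP by -0.86. Krt19 was further from 0 both times, below it over EGFP and above it over Oct4-EGFP. Crossing the pairs, Krt8 minus Krt19 was 1.41 over EGFP with Krt8 probe 1 and 0.70 with probe 2, and over Oct4-EGFP -0.11 and -0.01. Krt7 minus Krt18 was -0.87 over EGFP and -1.26 over Oct4-EGFP.

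In the indirect comparison, with Krt8 probe 1, all 4 differences, type II minus type I, were above 0, from 0.39 (Krt7 and Krt18) and 0.53 (Krt8 and Krt18) to 1.37 (Krt7 and Krt19) and 1.52 (Krt8 and Krt19). With Krt8 probe 2, Krt8 minus Krt18 was -0.27 and Krt8 minus Krt19 0.71. The type I gene was thus further below its EGFP level in each pair, except for Krt18 against Krt8 probe 2. The reading differences of the Nr5a2-EGFP clone, type II minus type I, ranged from -0.10 to 0.16 over the 4 pairs.

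The other keratin genes give the family background. Of 22 other type II keratin genes on the array, 19 were above background in all channels, and so were 23 of 26 other type I genes. Over Oct4-EGFP, 0 of the 19 type II genes were 2-fold higher or lower, with ratios from -0.44 to 0.70 and a median of 0.14. Of the 23 type I genes, 1 was higher and 0 lower, with a median of 0.06. Over all genes, 4.45% were higher and 6.89% lower, so with lists of this size the counts do not stand apart from the background.

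That 1 gene was Krt20, a type I keratin of intestinal and urothelial epithelium. Its levels were 11.95 in the EGFP clone, 10.20 and 9.91 in the Nr5a2-EGFP clone and 8.29 in the Oct4-EGFP clone. Its log2 ratios were -1.75 over EGFP and 1.62 over Oct4-EGFP, and -3.36 in the indirect comparison. The order of the clones was that of Krt19. The ratio over Oct4-EGFP was close to that of Krt19 (1.64), and the one over EGFP was larger in size (-1.75 against -0.76).

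The remaining keratins, some of them epidermal genes that mark stratified rather than simple epithelium, gave mixed values. Krt5 had 0.52 over EGFP and 0.33 over Oct4-EGFP, and Krt14, its partner, 0.37 and -0.43. Krt2 was lowest in the Oct4-EGFP clone, at 12.11 against 12.85 in the EGFP clone, and had 0.56 over Oct4-EGFP, but its other probe gave -0.33. Over EGFP, Krt16 (1.05) and Krt86 (1.02, saturated in 1 channel) were just past 2-fold higher, where 3.3% of genes were higher and 4.97% lower. In the indirect comparison, where 6.62% of genes were higher, Krt33a was higher (1.11) and Krt13 lower (-1.04), but another probe of Krt13 gave -3.12 over Oct4-EGFP where the brighter gave 0.88.

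**Figure D3:**
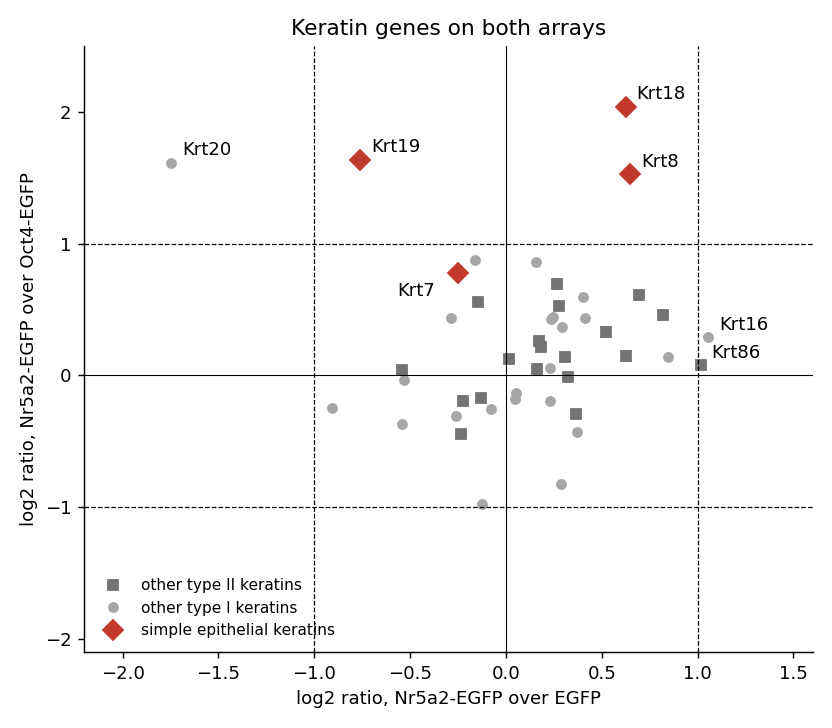
Log2 ratio over EGFP (horizontal axis) against log2 ratio over Oct4-EGFP (vertical axis) for each keratin gene above background, 1 point per gene at its brightest probe. Diamonds are the simple epithelial keratins, squares other type II and circles other type I genes, and dashed lines mark 2-fold; Krt8, Krt18, Krt19 and Krt20 lie above the upper line, at 1.53 to 2.04.

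In the genome the keratins stand in 2 clusters, type II genes with Krt18 on chromosome 15 and the other type I genes on chromosome 11. Krt8 and Krt18 are neighbours at the end of the type II cluster. In RefSeq on GRCm38 they are transcribed away from each other, and 23.9 kb lie between them, with only the predicted genes Gm36026 and Gm41404 in the gap. Of 24 other keratin genes on chromosome 15, which include Krt87 and Krt88 beside the type II list, 20 were measured; 0 were 2-fold higher over Oct4-EGFP and 0 lower, with a highest ratio of 0.70. On chromosome 11 it was 1 of 23, Krt20, whose probe lies 713 kb from that of Krt19. Of all genes, 4.45% were higher and 6.89% lower, so the counts in these clusters do not stand apart from the background.

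The genes next to the members were also read. Over all genes, 4.45% were 2-fold higher over Oct4-EGFP and 6.89% lower. With so few neighbours, the counts below do not stand apart from these shares. Within 200 kb of Krt19, 0 of 22 measured genes were 2-fold higher or lower over Oct4-EGFP, and within 200 kb of Krt7 0 of 12. Around Krt8 the only such gene of 15 was Krt18, and around Krt18 Krt8 was the only higher one of 18. Itgb7 (-1.50), an integrin gene 184 kb from Krt18, and an unnamed transcript model (-1.18) were lower there. The next probes on either side of the Krt8 and Krt18 pair, those of C77847 (0.23, 4.3 kb from Krt8 probe 1) and Gm9693 (-0.24, 44 kb from the Krt18 probe), did not share its ratio over Oct4-EGFP. The next keratin gene, Krt78, had 0.21. The window of 200 kb was set after the data had been seen.

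**Figure D4:**
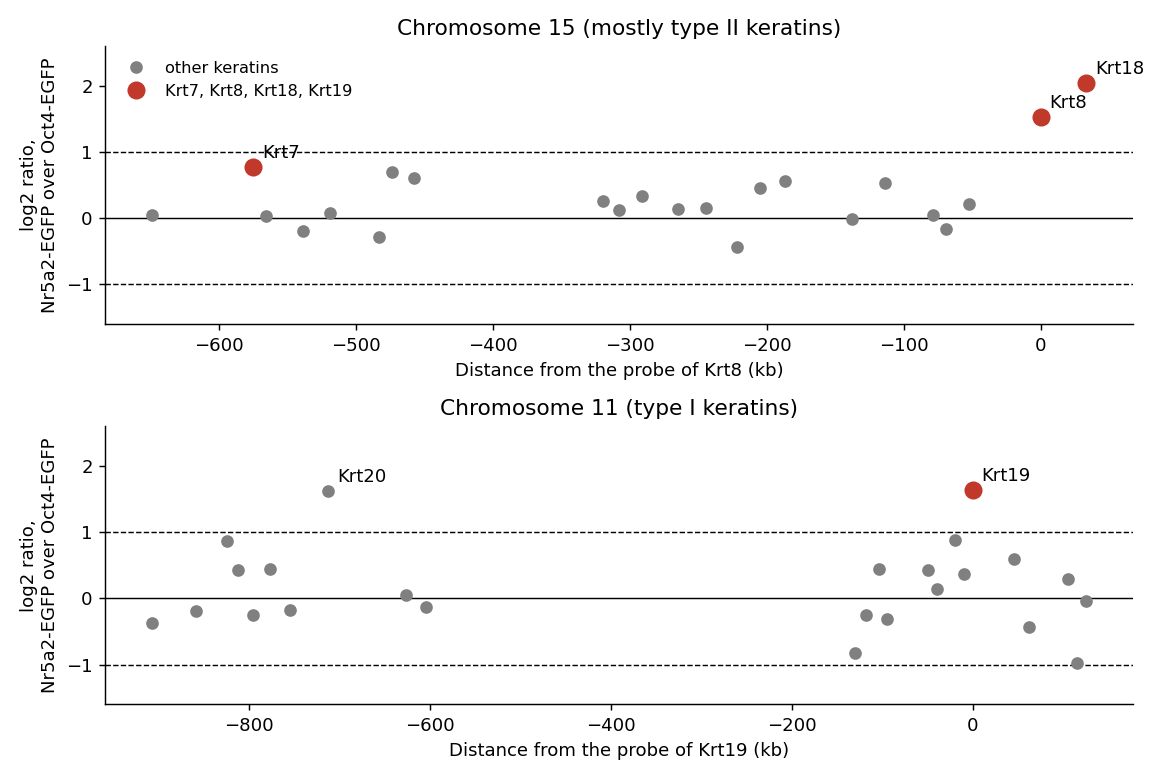
Log2 ratio of Nr5a2-EGFP over Oct4-EGFP (vertical axes) of keratin genes by distance in kb from the Krt8 probe on chromosome 15 (upper panel) and the Krt19 probe on chromosome 11 (lower panel), 1 point per gene. Dashed lines mark 2-fold; Krt8 and Krt18 stand above the line at the right end of the upper panel, and Krt19 and Krt20 in the lower one.

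Promoter sequences were available from RefSeq (GRCm38.p6) for Krt7, Krt8 and Krt18. The 250 bases before each annotated start are printed because Krt8 (1.53) and Krt18 (2.04) had larger ratios over Oct4-EGFP than Krt7 (0.78). Capitals mark AGGTCA, the core element that many nuclear receptors recognise, and GGGCGG or its reverse complement, the GC box of Sp and Klf factors.
Krt8: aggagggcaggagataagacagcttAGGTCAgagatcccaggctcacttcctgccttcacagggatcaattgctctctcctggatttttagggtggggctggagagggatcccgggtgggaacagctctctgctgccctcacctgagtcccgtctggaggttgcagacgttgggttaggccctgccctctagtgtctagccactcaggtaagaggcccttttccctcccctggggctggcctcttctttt
Krt18: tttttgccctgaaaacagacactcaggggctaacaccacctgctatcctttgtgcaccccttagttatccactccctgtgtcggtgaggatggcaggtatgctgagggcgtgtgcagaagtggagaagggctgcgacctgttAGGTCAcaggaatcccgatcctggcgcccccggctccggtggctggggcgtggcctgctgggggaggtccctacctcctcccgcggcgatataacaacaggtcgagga
Krt7: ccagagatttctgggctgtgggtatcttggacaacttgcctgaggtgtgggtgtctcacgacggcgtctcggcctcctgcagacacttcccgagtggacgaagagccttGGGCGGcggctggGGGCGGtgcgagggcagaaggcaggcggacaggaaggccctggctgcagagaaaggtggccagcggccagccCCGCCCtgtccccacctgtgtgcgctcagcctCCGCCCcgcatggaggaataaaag

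These stretches lie at chr15:102004343-102004592 (Krt8, minus strand), chr15:102027966-102028215 (Krt18, plus strand) and chr15:101412153-101412402 (Krt7, plus strand). The windows searched for letters, on both strands, ran 50 bases past the start, 300 bases in all. AGGTCA was found once in each of the 3 windows, 225 bases before the start in Krt8, 108 before it in Krt18 and after the start in Krt7, beyond the stretch shown. Of all 32851 windows of that length in the table, 16.3% hold it. The longer element CAAGGTCA, which Nr5a2 and its relatives recognise, was in none of the 3 and in 1.56% of all windows.

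GGGCGG occurred 4 times in Krt7 and not in Krt8 or Krt18, where 35.7% of all windows hold it. Krt8 had AGATAA, bound by Gata factors and held by 11.2% of windows, 239 bases before the start, while the other 2 had none. GCCNNNGGC, the AP-2 element held by 16.6%, occurred 2 times in Krt7 and once in Krt18, overlapping GGGCGG once in Krt7. AGGAAG, an Ets element held by 35.4%, was in Krt7 and Krt8 once each. TATAAA, held by 13.6%, was in Krt8 alone, at 2 overlapping positions on opposite strands across the annotated start. TGANTCA (AP-1, 7.81%), CATTCC (TEAD, 14.7%), TTTATNG (CDX, 10.9%) and the octamer ATGCAAAT (1.74%) were in none of the 3. Such matches describe letters only.

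Factors known or proposed to act on simple keratin genes were read from a list of 21, of which 20 were measured. Over Oct4-EGFP, 8 were at least 2-fold higher and 4 lower, against 4.45% and 6.89% of all genes, with a median of 0.37. Cdx2 (4.48), Cebpb (3.52), Gata3 (3.48) and Gata2 (3.12), transcription factors of which Cdx2, Gata2 and Gata3 are known from trophoblast, had the largest ratios. Sp3 had 1.85, Tfap2c, an AP-2 factor of trophectoderm, 1.35, and the AP-1 genes Jun and Junb 1.23 and 1.11. Klf4 (-2.12), Klf5 (-1.80), Fos (-1.16), also an AP-1 gene, and Hnf4a (-1.04) were lower. Over EGFP, 2 of 20 were higher, Junb (1.73) and Gata3 (1.00), and 2 lower, Hnf4a (-1.11) and Fos (-1.02), against 3.3% and 4.97% of all genes.

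Linkers and partners of keratin filaments are read here against the 11.3% of all genes that were 2-fold higher or lower over Oct4-EGFP. Of 17 measured genes for desmosomes, hemidesmosomes and filament linkers, 0 were higher over Oct4-EGFP and 2 lower, Perp (-2.24) and Col17a1, which was at least 2.96-fold lower, its Cy5 signal being not well above background. Dsp, which encodes desmoplakin, the protein that ties keratin to the desmosome, had 0.92, and Pkp2 0.62. Of 19 measured genes on a list of keratin partners and modifiers, 0 were higher and 1 lower, the keratinocyte-associated gene Krtcap3 (-1.30). Whether its product acts on keratin itself was not tested. Dnajb6, a co-chaperone of the Krt18 product, had 0.06 over Oct4-EGFP and 0.78 over EGFP, but its 4 probes ranged from -0.39 to 0.78 over EGFP.

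Of 16 other intermediate filament genes measured, Lmnb1, a nuclear lamin gene, was higher over Oct4-EGFP (1.01, saturated in 1 channel) and Prph, a neuronal filament gene, lower (-1.32), against 4.45% and 6.89% of all genes. Lmnb1 had the clone order of Krt18, at 15.22 in the EGFP clone and 14.45 in the Oct4-EGFP clone. Vim, the filament gene of mesenchymal cells, was at 12.95 in the EGFP clone and 12.96 in the Oct4-EGFP clone. Its ratio was -0.87 on the EGFP array and -0.84 on the Oct4 array. Over EGFP 2 of 15 were lower, Des (-1.16) and Prph (-1.15), where 4.97% of all genes were. Of 16 surface genes and regulators of epithelium, 2 were higher over Oct4-EGFP, Crb3 (2.04) and Grhl2 (1.98, other probe 0.51), and 0 lower. Cdh1 (E-cadherin) had -0.22 and Epcam 0.18.

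Trophoblast markers were, like the keratins, low in the Oct4-EGFP clone. Of 16 measured over Oct4-EGFP, 11 were at least 2-fold higher and 0 lower (median 2.19), against 4.45% and 6.89% of all genes. Of 15 over EGFP, 2 were higher and 1 lower, against 3.3% and 4.97%. Summed over 18 unsaturated markers, the normalized intensity was 142803 in the EGFP clone, 129771 and 131262 in the Nr5a2-EGFP clone and 26952 in the Oct4-EGFP clone. Elf5, Tpbpa and Ctsq, markers of trophoblast stem cells, spongiotrophoblast and giant cells, were not well above background in any channel.

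Primitive endoderm, another early tissue with these keratins, gave a mixed picture. Over Oct4-EGFP, where 4.45% of all genes were higher and 6.89% lower, 3 of 17 of its markers were higher (Dab2 1.86, Lamb1 1.63, Lrp2 1.11) and 2 lower, Lama1 (-1.81) and Hnf4a (-1.04), while Gata4 had -0.46 and Gata6 0.87. The summed intensity of 18 of its 19 markers was 101063 in the EGFP clone, 71489 and 66621 in the Nr5a2-EGFP clone and 79842 in the Oct4-EGFP clone, of which Sparc alone made up 48.4% to 69.2%. Without Sparc, the sum was highest in the Oct4-EGFP clone, at 41207, against 31135 in the EGFP clone and 26098 and 26150 in the Nr5a2-EGFP clone. That order rested on Lama1. Its log2 level was 14.84 in the Oct4-EGFP clone, 12.67 in the EGFP clone and 12.56 and 13.03 in the Nr5a2-EGFP clone. In the indirect comparison, 1 of 17 markers was higher, Lama1, and 4 were lower, against 6.62% and 6.06% of all genes. Afp was not well above background in any channel. The spots of Sox7 were marked as outliers and gave no value. Of 12 pluripotency markers, 0 were higher and 8 lower over Oct4-EGFP. The summed intensity of the 9 unsaturated ones was highest in the Oct4-EGFP clone, at 108897, against 22544 in the EGFP clone and 18766 and 18028 in the Nr5a2-EGFP clone. Esrrb alone made up 8.72% to 54.2% of a sum. Without Esrrb the sums were 49895, 14480, and 17130 and 13558, in the same order. The close sums of the Nr5a2-EGFP clone hide opposite shifts from the EGFP array to the Oct4 array. Esrrb went from 10.68 to 12.13 and Zfp42 from 13.02 to 11.88. None of 7 measured keratinocyte markers was 2-fold higher or lower on either array, against 8.28% of all genes over EGFP and 11.3% over Oct4-EGFP. With a list this short, that count does not stand apart from these shares. Trp63, counted among the 7, was saturated in 2 channels. The part that cells of these types had in the keratin levels was not tested.

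The genes most like each keratin in their 4 channel levels, centred per gene, were found among 14231 genes above background and unsaturated in all channels. Each gene was taken at its brightest probe, which for Krt8 was probe 1. For Krt18 they were Lama4, Espnl and Fbxo21 (distances 0.02 to 0.08, in log2 units), and for Krt8 Sncaip, Cdk16 and Rragd (0.04 to 0.08). For Krt19 they were Lamb1, Pcdh12 and Myl10 (0.04 to 0.11), and for Krt7 Rab33b, Srrt and Pepd (0.01 to 0.03). With 4 channels of 3 clones, many genes can lie close. Among the keratins, Krt8 was the closest to Krt18 (distance 0.40), at rank 73 of all genes, and Krt18 held rank 173 for Krt8. At these probes, no other pair of the 4 was nearer than 0.83, the distance between Krt7 and Krt8. Distances from Krt8 probe 2, which gave another order of the clones, were not taken, so these values hold for probe 1 only.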

How the data were processed

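Both arrays (Agilent design 026655, 1 slide) were deposited as spot intensity files. The scanner software, Feature Extraction, is 10.7.3.1 per the file headers and 9.3.2.1 per the submitters' processing notes. Groups and dyes come from the labels; 10 µg of RNA went into each channel. Processed intensity and the log10 ratio of Cy5 over Cy3 are, per the file headers, background-subtracted and dye-normalized. The authors' deposited table holds log2 ratios that followed the scanner ratios (r = 0.997 on both arrays; medians 0.03 and 0.05); no source used here states its centring. Flags (saturation, outliers, background) are as deposited.

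From mean and background signals, normexp (offset 50) and loess were run in limma 3.58.1 (R 4.3.3) without control and outlier spots (530 and 523 outliers); channels were scaled by Aquantile. Spots well above background made up 78.1% to 80.1% of a channel. Probes printed 10 times had a median SD of 0.07 on either array; the number of arrays limits all other precision. Genes were named by RefSeq accession (26055 probes matched, 66.1%) or the file, at their brightest probe. A gene entered if above background in at least 1 channel compared, and a dim channel was raised to the lowest level above background. The indirect comparison used Cy3 levels where a channel was dim. The steps were tested on simulated arrays. Members and lists were chosen with earlier results of these data known. The rule for named genes took all probes of the 4 keratins, up to 4 genes past 2-fold per list and the 3 genes nearest in pattern. It also took 10 genes whatever their values (Vim, Krt5, Krt14, Cdx2, Gata3, Tfap2c, Gata4, Gata6, Epcam, Cdh1). Krt2, Jun, Sp3, Klf4, Klf5, Zfp42, Dsp, Pkp2, Dnajb6, the neighbours of the keratins and the promoter elements were chosen after values or sequences were seen. So were the ratios of Junb, Fos and Hnf4a over Oct4-EGFP among the listed factors. Mesoderm (0 of 2 measured genes higher or lower over Oct4-EGFP), fibroblast (0 higher and 2 lower of 7) and neural markers (1 and 1 of 7) were also read. Of all genes, 4.45% were higher over Oct4-EGFP and 6.89% lower. Alternatives were other normalizations, the authors' table, filters and probe rules.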

Additional observations from a re-analysis of the deposited data

How the results depend on the processing

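All 60 alternative values of the keratin ratios moved by less than the technical spread, and 46 of 48 partner differences moved by less than the spread that a difference of ratios takes from it. The exceptions came from averaging the Krt8 probes, which put Krt8 minus Krt18 at 0.13 and Krt8 minus Krt19 at 1.11 in the indirect comparison. Counts over all genes moved by over 1.5 times in 9 of 36 cases; the cause was not tested. Over EGFP, higher genes numbered 1546 with median centring and 1784 with the processed signals or the authors' table, in place of 859, and lower genes 2132 and 2122 with the latter 2, in place of 1294. Over Oct4-EGFP, higher genes numbered 1961 and 2047, in place of 1163, and in the indirect comparison lower genes 2481 and 2512, in place of 1598. No paired analysis was possible because each group is 1 sample. Signals at all 5 keratin probes were well above background, and each comparison rests on single arrays.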
